A study of Mus musculus with 25 samples.

Results

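The translation machinery was followed through 2 kinds of muscle injury in 70 genes: 41 genes for eukaryotic initiation factors, their binding proteins and kinases (symbols beginning with Eif), 8 for elongation factors and proteins that modify them (Eef), and 21 aminoacyl-tRNA synthetases (1 capital letter and ars, with an optional 1 or 2). They were taken by symbol alone from 8251 genes named on the array, where 92 probe sets carried 1 such symbol, and each gene was read from its probe set with the highest mean over the 25 arrays. Of the 70 genes 65 passed a filter on low signals and were tested. The other 5, Eif4enif1, Eif2ak3, Eif2s3y, Eef1g and Eif4h, were too dim for a test.

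Tibialis anterior, a fast muscle of the shin, came from female mice of the C57BL/6J strain aged 2 to 3 months. It was damaged either by 150 lengthening (eccentric) contractions in the living animal or by contact for 10 s with a steel probe of 6 mm diameter cooled on dry ice, and was collected after 6 hours or after 1, 3 or 7 days. The 8 injured groups held 3 samples each, apart from contraction at 1 day and freezing at 7 days with 2, and 3 muscles were left uninjured as controls. No genotype other than the strain, and no agent, was named for any group. Whether any of the muscles came from one mouse is not stated in the labels, and p-values cover no more than the variation among these samples, which may be technical in part.

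Protein synthesis begins when initiation factors bring the initiator tRNA, the small ribosomal subunit and the capped mRNA together, goes on as elongation factors deliver charged tRNAs and move the ribosome, and draws its charged tRNAs from the synthetases. Muscle adjusts the rate mainly through the phosphorylation of a few of these proteins, among them the cap-binding regulators under mTOR complex 1 and the eIF2 complex under the stress kinases, which messenger levels do not show. Adult muscle fibres are also known for a form of elongation factor 1A of their own, encoded by Eef1a2, whereas most dividing and non-muscle cells use the product of Eef1a1.

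Values are array signals on a linear scale, and changes are differences of group means of log2(signal + 13) ± SE from 1 limma model of all 25 arrays. A gene was called where its p, adjusted by Benjamini-Hochberg over 9506 probe sets, was under 0.05. The added 13 units make changes of dim genes smaller than they are. Sample 436, labelled as frozen and collected at 3 days, correlated at 0.947 to 0.952 with the controls and at 0.800 to 0.802 with the other samples of its own group, against 0.938 to 0.976 within the other groups. Its summed signal for 10 macrophage markers was 281, against 366 to 539 in controls and 25451 to 26967 in its group. The median residual SD of all probe sets was 0.385 (log2) with this sample and 0.323 without it, so calls are given with and without it. A value for which the arrays are not named comes from all 25. In the lists of signals, sample 436 stands first among the samples frozen at 3 days.

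The mixture of cells in the muscle changed with injury. The summed signal of 10 fibre genes was 105592 to 178864 in controls, 65469 to 88429 at 3 days after contraction, 63593 to 103838 at 1 day after freezing and 29482 to 39758 at 3 days after freezing without sample 436. Over the same groups the 10 macrophage markers summed to 366 to 539, 8517 to 13053, 6101 to 8909 and 25451 to 26967, and 7 genes of dividing cells to 383 to 423, 1046 to 1486, 1119 to 1328 and 2108 to 2280. At 7 days after freezing the fibre genes summed to 84156 to 88656 and the macrophage markers to 6587 to 7232. The 5 fibroblast markers were highest there, at 16448 to 16714 against 2288 to 4455 in controls, and so were the 7 genes of regenerating muscle, at 11915 to 13237 against 5109 to 6600. No macrophage marker was at 0, and all 10 of 10 were on the array. The ratio of 3' to 5' actin control signals, a sign of RNA quality, was 0.560 to 0.595 in controls. It lay wholly above that range at 3 days after contraction (0.923 to 1.21) and after freezing at 6 hours (0.657 to 0.955), 1 day (1.01 to 1.31), 3 days (0.741 to 1.09) and 7 days (0.776 to 0.808). It was also above it at 1 day after contraction (0.617 to 0.641) and overlapped it at 6 hours and 7 days after contraction. In bulk muscle, fewer cells of a type and less RNA per cell cannot be told apart, and the part of cell mixture and RNA quality in the results on translation genes was not tested.

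Most translation genes were called in no injured group, and a few changed by 2-fold or more. With all arrays 16 of the 65 tested genes were called against control in at least 1 group (24.6%, against 31.6% of all 6916 named genes tested) and 49 in none. Without sample 436, 31 were called at least once (47.7%, against 56.7%) and 34 never. The shares called were mostly near or below those of all named genes in single comparisons too, as the plot of shares shows, so these counts show nothing particular to the translation genes. With only the compared groups in the model, 0 members were called at 3 days after freezing in place of 8.

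After contraction, none of the 65 was called at 6 hours (4 had an unadjusted limma p under 0.05), where 2.01% of all genes were called. At 1 day 1 was called (1.54%, against 1.91% of all genes) and at 3 days 5 (7.69%, against 8.78%). At 7 days limma again called none (9 had an unadjusted p under 0.05), beside 0.636% of all genes. After freezing 4 were called at 6 hours (6.15%, against 5.38%) and 9 at 1 day (13.8%, against 14.8%). Later counts were 8 at 3 days (12.3%, against 18.9%) and 2 at 7 days (3.08%, against 5.6%). The median change of the 65 lay between -0.12 and 0.06 in these 8 comparisons, and that of all genes between -0.08 and -0.04. An F test for any difference between the 9 groups called 11 members (16.9%), against 28.4% of all genes.

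Without sample 436 more genes were called among members and background alike. After contraction the counts at the 4 times in turn were 0 (7 had an unadjusted limma p under 0.05), 2 (3.08%), 15 (23.1%) and 2 (3.08%), and the shares of all genes were 3.72%, 4.71%, 24.4% and 3.38%. After freezing they were 8 (12.3%), 14 (21.5%), 25 (38.5%) and 10 (15.4%), beside 12.7%, 28.5%, 44.9% and 21.1% of all genes. The F test then called 30 members (46.2%), against 53.4% of all genes. At 3 days after freezing 8 of the 25 rose and 17 fell, whereas over all genes 1574 rose and 1533 fell.

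**Figure D1:**
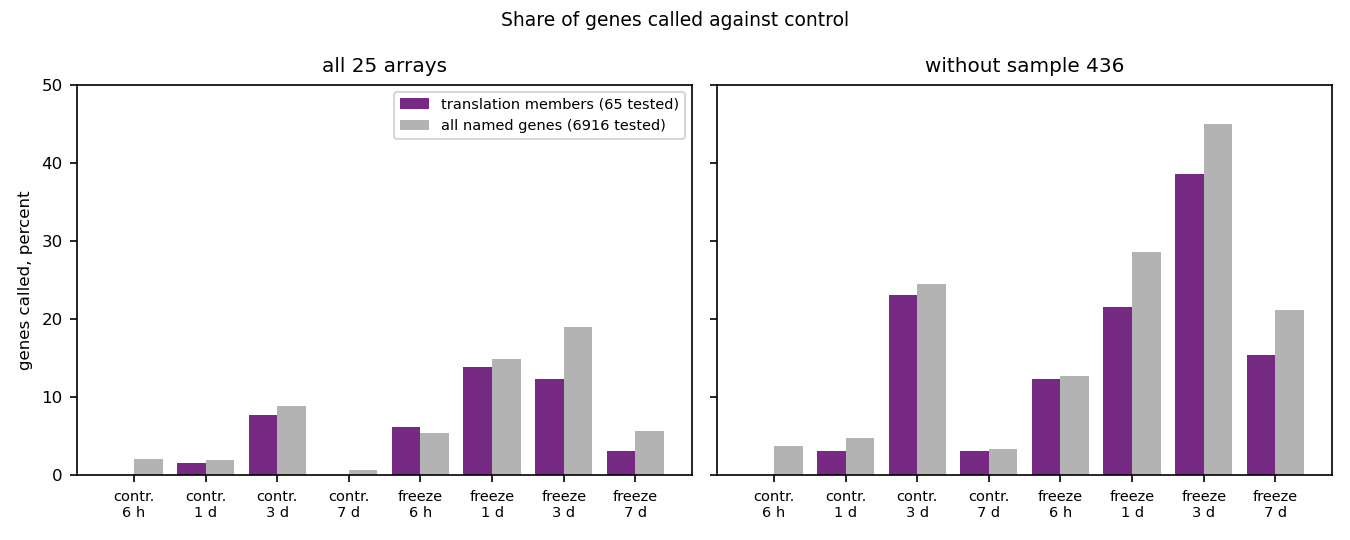
Percent of the 65 tested translation genes (purple) and of all 6916 named genes tested (grey) called against control in each injured group, with all 25 arrays (left) and without sample 436 (right). The members' share exceeds that of all genes at 6 hours after freezing with all arrays (6.15% against 5.38%) and lies below it in the other groups of both panels.

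Elongation was read from 8 tested genes, which count Eif5a with the tested Eef genes. Of these, Eef1a1, Eef1a2, Eef2k and Eef1b2 were called in at least 1 group, with or without sample 436. The 31.6% and 56.7% of all genes given above stand beside them. Eef1a1, the form of most non-muscle cells, rose 4.62-fold at 3 days after contraction and 6.01-fold at 7 days after freezing, while Eef1a2, the form of adult fibres, fell 2.90-fold at 3 days after freezing, or 5.56-fold without sample 436. With all arrays no group had a call for both; without that sample both were called at 3 days after contraction and at 1 and 3 days after freezing. Eef2, which moves the ribosome along, was called in no group.

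Eef1a1 signals were 1886, 1700 and 1134 in the 3 controls. After contraction they were 1646, 2076 and 1691 (6 hours), 2497 and 2532 (1 day), 8690, 5148 and 8160 (3 days) and 3190, 6750 and 6060 (7 days). After freezing they read 4172, 2472 and 4793 (6 hours), 6279, 6477 and 7810 (1 day), 857, 9671 and 12196 (3 days) and 9487 and 9119 (7 days). All injured arrays lay above every control except those at 6 hours after contraction, which overlapped the controls, and sample 436, which lay below them. The changes called were 2.21 ± 0.60 at 3 days after contraction (limma adjusted p = 0.0297), 2.14 ± 0.60 at 1 day after freezing (0.0217) and 2.59 ± 0.67 at 7 days after freezing (0.0297). At 3 days after freezing the change was 1.59 ± 0.60 (0.0669) with all arrays and 2.81 ± 0.30, or 7.01-fold, without sample 436 (adjusted p = 1.13e-07). The model without that sample also called 1.71 ± 0.27 at 7 days after contraction (adjusted p = 0.000566, against 0.278 with it) and 1.25 ± 0.27 at 6 hours after freezing (0.00328, against 0.289). With sample 436 kept, the call at 3 days after contraction was lost without control 1, 2 or 3 or contraction sample 435 or 467, the call at 1 day after freezing without control 3 or freeze sample 460 or 464, and the call at 7 days after freezing without any 1 control or either frozen sample. With 1 array at a time left out these changes stayed between 1.92 and 2.73, with adjusted p up to 0.225. Eef1a1 has processed copies of close sequence in the genome, and whether the probes tell them apart was not tested.

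Eef1a2 was called lower. Its signals were 8759, 8573 and 16623 in controls, and after contraction 9247, 8681 and 13504 (6 hours), 6838 and 10260 (1 day), 5906, 5270 and 5986 (3 days) and 8414, 11490 and 10798 (7 days). In frozen muscle they were 8963, 8899 and 7581 (6 hours), 6182, 4742 and 6342 (1 day), 13606, 1386 and 2672 (3 days) and 7429 and 6001 (7 days). The 2 arrays of 3 days after freezing other than sample 436 were the lowest of the 25, and sample 436 lay within the range of the controls. The fall there was -1.54 ± 0.50 with all arrays (limma adjusted p = 0.0404) and -2.48 ± 0.30 without sample 436 (4.3e-07). In the model of all arrays that call was lost on leaving out control 1, 2 or 3 or freeze sample 450 or 468, and also with arrays centred on their medians or with no filter. With 1 array other than sample 436 left out at a time the change ran from -1.70 to -0.83, with limma adjusted p up to 0.307. Without sample 436 the falls at 3 days after contraction (-0.91 ± 0.26, adjusted p = 0.0144) and at 1 day after freezing (-0.91 ± 0.26, 0.0123) were called as well; with it their adjusted p was 0.254 and 0.227. At 7 days after contraction Eef1a2 signals overlapped those of the controls. The sum of fibre markers was lower in the groups where Eef1a2 was called, sample 436 apart. The macrophage sum was above that of the controls in every injured group, sample 436 apart, whether or not Eef1a1 was called. At 6 hours after contraction it was 574 to 1029, against 366 to 539 in controls, and Eef1a1 overlapped the controls there. At 7 days after freezing, the group of the largest rise of Eef1a1 with all arrays, the fibroblast and regenerating muscle sums were at their highest. The part of any of these in the changes was not tested.

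**Figure D2:**
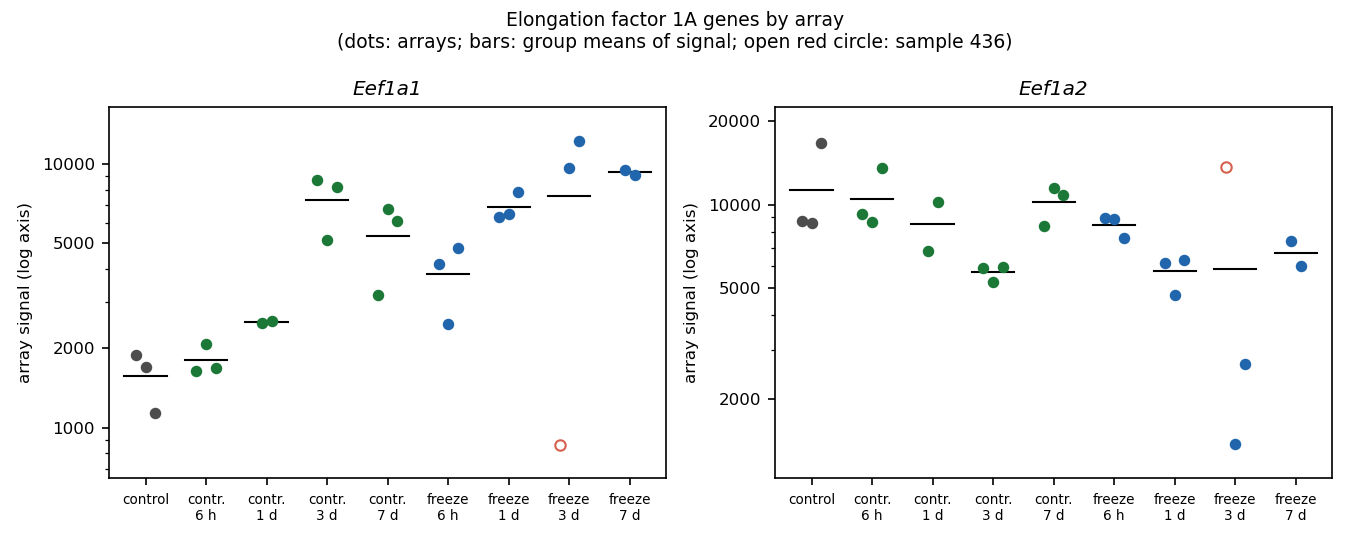
Signals of Eef1a1 (left) and Eef1a2 (right) on a log axis in each of the 25 arrays by group, with black bars at the group means and sample 436 as an open red circle. Eef1a1 reaches 9671 and 12196 and Eef1a2 drops to 1386 and 2672 in the samples frozen at 3 days other than sample 436, which reads 857 and 13606.

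Eef2k, whose kinase product slows elongation by phosphorylating eEF2, fell at 1 day after freezing by 1.24 ± 0.29 on the log2 scale (2.36-fold, limma adjusted p = 0.00715, and 0.00248 without sample 436). Its signals were 94.8, 57 and 56.5 in controls, against 18.2, 15.6 and 31.9 at that time, which did not overlap. After contraction Eef2k read 73.4, 34.9 and 52.2 (6 hours), 49.9 and 45.8 (1 day), 39, 32.7 and 35.4 (3 days) and 61.4, 89.5 and 54.7 (7 days). At the other times after freezing it read 30, 72.7 and 64.4 at 6 hours, 40, 38.1 and 30.9 at 3 days and 67 and 47 at 7 days. None of these groups was called. Eef2 itself read 2726, 2775 and 2800 in controls. It read 2653, 2458 and 2945 (6 hours), 3028 and 3200 (1 day), 3196, 2197 and 3290 (3 days) and 2281, 2561 and 3070 (7 days) after contraction. Frozen muscle gave 2263, 2741 and 2527 (6 hours), 2727, 2326 and 2923 (1 day), 2633, 2768 and 3092 (3 days) and 3072 and 2612 (7 days). Its 8 changes against control lay between -0.14 and 0.17, with SEs of 0.19 to 0.22.

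Eef1b2, a subunit of the exchange factor that recharges eEF1A with GTP, fell at 3 days after freezing by 1.31 ± 0.45 on the log2 scale (limma adjusted p = 0.0473), and by 1.74 ± 0.45 without sample 436 (0.00318). It read 123, 168 and 208 in controls and 66.1, 144 and 158 (6 hours), 183, 90.2 and 107 (1 day), 116, 47.9 and 32.1 (3 days) and 75.8 and 120 (7 days) after freezing. After contraction it read 124, 126 and 38.6 (6 hours), 178 and 88.7 (1 day), 124, 52.2 and 75.6 (3 days) and 136, 205 and 80.5 (7 days). The spread within groups was wide. The call was among the least stable: it was lost on leaving out any of 17 of the 24 arrays other than 436, with adjusted p up to 0.259, and it rests on a probe set whose name marks its probe choice as relaxed. Eif5a, a factor that helps the ribosome past difficult peptide bonds, read 52.9, 8.7 and 29.3 in controls and stayed dim. After contraction it read 36, 41.6 and 31 (6 hours), 29.4 and 37.7 (1 day), 37.5, 27.9 and 16.7 (3 days) and 27.8, 36.7 and 9.8 (7 days). After freezing the signals were 29.5, 32.1 and 40.8 (6 hours), 20, 42.7 and 20.7 (1 day), 24.6, 39.8 and 27.6 (3 days) and 24.1 and 27.9 (7 days). Its changes lay between -0.13 and 0.32 with SEs of 0.35 to 0.39, and none was called.

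Among the genes of cap recognition, the 2 regulators that hold eIF4E back moved in opposite directions. Eif4ebp1, encoding the binding protein 4E-BP1 that mTOR complex 1 phosphorylates to free eIF4E, rose 3.52-fold at 1 day after freezing. Eif4ebp2, encoding a close relative, fell by up to 2.58-fold, at 7 days after freezing. Of the 9 genes tested in this role 4 were called in at least 1 group, and 6 without sample 436. These counts of few genes stand beside 31.6% and 56.7% of all named genes.

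Eif4ebp1 read 158, 112 and 106 in controls. After contraction it read 172, 235 and 214 (6 hours), 246 and 183 (1 day), 298, 245 and 258 (3 days) and 166, 144 and 149 (7 days), and after freezing 467, 252 and 335 (6 hours), 464, 390 and 560 (1 day), 161, 204 and 204 (3 days) and 116 and 120 (7 days). Every array at 6 hours, 1 day and 3 days after either injury exceeded the highest control, and by 7 days after freezing both arrays were within the range of the controls. Calls were made at 6 hours (1.38 ± 0.21, limma adjusted p = 0.000226) and 1 day (1.82 ± 0.21, 1.21e-05) after freezing and at 3 days after contraction (1.04 ± 0.21, 0.00689). At 6 hours and 1 day after contraction the changes of 0.68 ± 0.21 (adjusted p = 0.138) and 0.73 ± 0.24 (0.177) were not called. At 3 days after freezing the change was 0.57 ± 0.21 (0.0653), and 0.67 ± 0.23 (0.0193) without sample 436. The 3 calls were kept under all 37 alternatives to the settings used, including each array left out. Neutrophil markers, 6 genes, summed to 2711 to 4333 at 6 hours and 1835 to 3313 at 1 day after freezing against 441 to 793 in controls, and their part in the early rise was not tested.

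Eif4ebp2 read 1922, 1970 and 3185 in controls and 1675, 1341 and 1771 (6 hours), 1265 and 1725 (1 day), 1339, 1130 and 886 (3 days) and 1619, 1296 and 1476 (7 days) after contraction. In frozen muscle it read 1338, 1465 and 1233 (6 hours), 1098, 1132 and 912 (1 day), 2393, 749 and 839 (3 days) and 988 and 784 (7 days). All injured arrays except sample 436 lay below the lowest control. With all arrays it fell by 1.05 ± 0.31 on the log2 scale at 3 days after contraction (limma adjusted p = 0.0419), 1.13 ± 0.31 at 1 day (0.0200), 0.99 ± 0.31 at 3 days (0.0345) and 1.37 ± 0.35 at 7 days (0.0265) after freezing. Without sample 436 the fall at 3 days after freezing was -1.52 ± 0.22 (6.01e-06) and that at 6 hours, -0.77 ± 0.20, was also called (0.0113, against 0.189). Control 3, at 3185, was the highest of the 25 arrays, and without it none of the 4 falls was called with sample 436 kept. Those at 1, 3 and 7 days after freezing were also lost without freeze sample 464, without control 1 or freeze sample 450 or 468, and without freeze sample 440 or 454, respectively, with adjusted p up to 0.238. That after contraction was lost on leaving out any of 15 arrays (adjusted p up to 0.155). With the mean of its probe sets in place of the brightest, none of the 4 was called. The other 2 probe sets of the gene, with mean signals of 34.1 and 128, were not called in any of the 12 comparisons.

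The helicase genes Eif4a1 and Eif4a2, whose products unwind the start of the mRNA, also differed. Eif4a1 read 173, 179 and 179 in controls, 192, 251 and 148 (6 hours), 288 and 168 (1 day), 210, 289 and 310 (3 days) and 214, 149 and 173 (7 days) after contraction. Freezing gave 233, 208 and 321 (6 hours), 407, 297 and 303 (1 day), 164, 238 and 264 (3 days) and 174 and 236 (7 days). It rose by 0.86 ± 0.24 at 1 day after freezing, where no array overlapped the controls (limma adjusted p = 0.0224, and 0.00589 without sample 436). With sample 436 kept the call was lost without any 1 of the controls or freeze sample 422, and leaving out 1 array at a time gave changes between 0.72 and 0.94 (adjusted p up to 0.0915), and it rests on a probe set of relaxed probe choice. Eif4a2 read 1866, 2108 and 1972 in controls. After contraction its signals were 2432, 2401 and 2494 (6 hours), 2294 and 2533 (1 day), 1695, 1814 and 1662 (3 days) and 2999, 2042 and 2143 (7 days). After freezing they were 1878, 2126 and 2127 (6 hours), 1275, 1704 and 2154 (1 day), 4219, 1023 and 858 (3 days) and 1973 and 1587 (7 days). Sample 436 was the highest of all 25 arrays and the other samples of its group the lowest. The change at 3 days after freezing was -0.35 ± 0.37 (0.515) with sample 436 and -1.07 ± 0.19 (9.88e-05) without it.

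**Figure D3:**
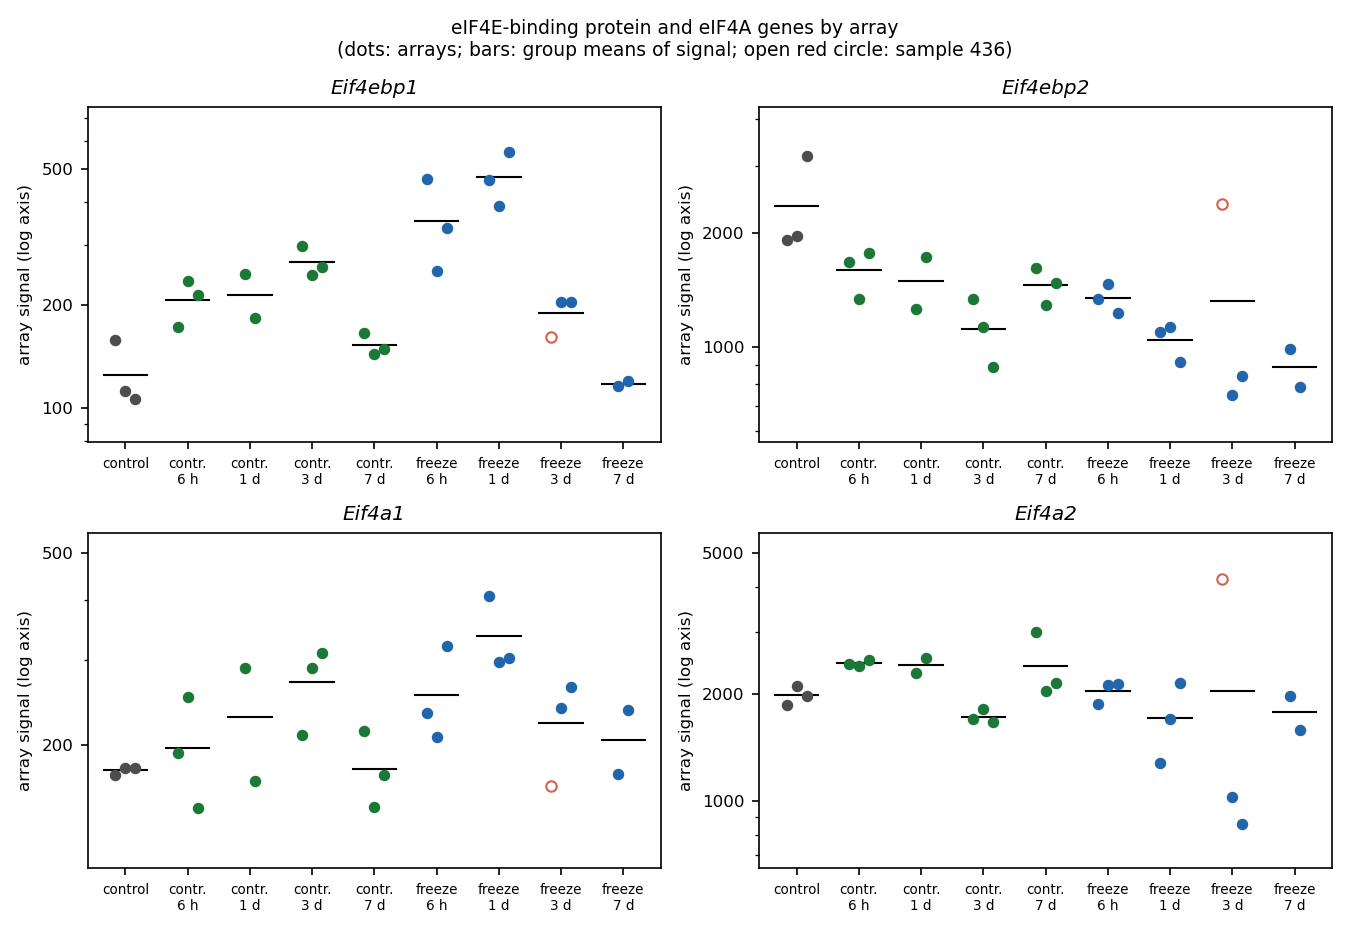
Signals of Eif4ebp1, Eif4ebp2, Eif4a1 and Eif4a2 on log axes in each of the 25 arrays by group, with black bars at the group means and sample 436 as an open red circle. Eif4ebp1 peaks at 390 to 560 at 1 day after freezing, when Eif4ebp2 is at 912 to 1132 against 1922 to 3185 in controls.

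Both scaffold genes tested, Eif4g2 and Eif4g3, were called lower. Eif4g2, encoding a relative of eIF4G that does not bind eIF4E, fell by 0.86 ± 0.27 on the log2 scale at 3 days after freezing (limma adjusted p = 0.0336) and by 1.23 ± 0.23 without sample 436 (0.000124). Its signals there were 345, 138 and 163, against 310, 296 and 550 in controls. That call was lost without control 1 or 3 or freeze sample 450 or 468 with sample 436 kept (adjusted p up to 0.232). Eif4g3, encoding a second eIF4G, read 372, 356 and 409 in controls and 369, 423 and 434 (6 hours), 358 and 356 (1 day), 207, 282 and 250 (3 days) and 407, 423 and 344 (7 days) after contraction. After freezing it gave 205, 260 and 268 (6 hours), 296, 244 and 265 (1 day), 550, 176 and 181 (3 days) and 310 and 295 (7 days). Its highest signal was in sample 436. Without that sample Eif4g3 was called lower in 4 groups: at 3 days after contraction (-0.60 ± 0.15, adjusted p = 0.00463) and at 6 hours (-0.61 ± 0.15, 0.00765), 1 day (-0.48 ± 0.15, 0.0186) and 3 days (-1.03 ± 0.17, 2.38e-05) after freezing. With it the adjusted p of these was 0.163 to 0.244. Eif4e, the cap-binding protein itself, was dim: 36.4, 24.7 and 47.6 in controls, 44.6, 41.8 and 47.5 (6 hours), 54.4 and 23.5 (1 day), 11.9, 18.9 and 21.1 (3 days) and 36.2, 9.9 and 42.4 (7 days) after contraction. Frozen muscle gave 26.5, 12.2 and 27 (6 hours), 26.1, 29.7 and 37.4 (1 day), 42.4, 17.8 and 24.5 (3 days) and 34.1 and 30.1 (7 days). None of its 8 changes, from -0.69 to 0.25 with SEs of 0.33 to 0.37, was called.

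Of the 6 genes that act in start codon choice and ribosome joining, 3 were called in at least 1 group with all arrays and 4 without sample 436. All calls of the probe sets used were rises, but another probe set of Eif1ax was called lower. The shares of all genes called at least once, 31.6% and 56.7%, stand beside these counts of few genes. Eif1a, encoding a form of eIF1A, which steadies the scanning ribosome, rose 5.34-fold at 1 day after freezing. Eif6, whose product keeps the large ribosomal subunit apart until it is ready and takes part in its assembly, rose 2.51-fold at that time. Eif5, whose product triggers GTP hydrolysis by eIF2 at the start codon, rose 2.11-fold at 1 day after contraction.

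Eif1a read 62.7, 86.8 and 51.9 in controls. After contraction the signals were 110, 162 and 86.2 (6 hours), 200 and 181 (1 day), 232, 188 and 184 (3 days) and 92.6, 120 and 77.6 (7 days), and after freezing 282, 130 and 385 (6 hours), 443, 382 and 402 (1 day), 90.5, 241 and 246 (3 days) and 154 and 134 (7 days). Both groups at 1 day, contraction at 3 days and freezing at 6 hours and 7 days lay wholly above the controls, as did freezing at 3 days, where sample 436 at 90.5 was only just above the highest control. Eif1a was called at 6 hours (1.70 ± 0.34, limma adjusted p = 0.00299), 1 day (2.42 ± 0.34, 9.65e-05) and 3 days (1.26 ± 0.34, 0.0191) after freezing and at 3 days after contraction (1.44 ± 0.34, 0.0139). Without sample 436 the rise at 3 days after freezing was 1.70 ± 0.30 (8.58e-05), and the rises at 1 day after contraction (1.36 ± 0.30, 0.00797) and 7 days after freezing (0.99 ± 0.30, 0.0248) were called too. With it their adjusted p was 0.0733 and 0.115. The calls at 6 hours and 1 day after freezing were kept under all 37 alternatives. In the model with all arrays, the call after contraction was lost without contraction sample 435 or control 3 (adjusted p up to 0.0698) and that at 3 days after freezing without control 1 or 3 or freeze sample 450 or 468 (up to 0.144). A second probe set for Eif1a rose at 1 day after freezing (1.82, adjusted p = 0.00296). With all arrays it was not called at 6 hours (0.82, adjusted p = 0.256) or 3 days (0.63, 0.228) after freezing or at 3 days after contraction (0.68, 0.247). Without sample 436 it was called in all 3 of these groups, at 0.82 (adjusted p = 0.0184), 1.32 (0.000163) and 0.68 (0.0301). At 1 day after contraction (0.28, limma adjusted p = 0.665) and 7 days after freezing (0.14, 0.748) it was not called even without that sample.

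Eif1ax, the copy of the gene on the X chromosome, read 229, 387 and 166 in controls and was called only at 7 days after freezing and only without sample 436 (0.83 ± 0.28, limma adjusted p = 0.0411, against 0.0951), where it read 427 and 465. Its probe sets disagreed. At 3 days after contraction the brightest changed by 0.60 and was not called. Another fell there by 1.08 on the log2 scale (limma adjusted p = 0.0221, and 0.000377 without sample 436). That other one was called lower at 3 days after freezing too (-0.89, 0.0339, with all arrays). It was also called lower at 7 days after freezing without sample 436 (-0.73, 0.0258), where the brightest was called higher. The direction of Eif1ax is therefore uncertain. The messages of Eif1a and Eif1ax encode nearly the same protein, and whether the probe sets separate them was not tested.

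Eif6 read 195, 203 and 136 in controls and 202, 178 and 174 (6 hours), 264 and 231 (1 day), 414, 291 and 601 (3 days) and 223, 227 and 296 (7 days) after contraction. After freezing it read 290, 178 and 361 (6 hours), 364, 518 and 514 (1 day), 186, 468 and 419 (3 days) and 316 and 310 (7 days). All arrays at 1 and 7 days after either injury and at 3 days after contraction lay above the controls, and sample 436 lay within the range of the controls. It rose by 1.33 ± 0.30 at 1 day (limma adjusted p = 0.00627) and 0.87 ± 0.30 at 3 days after freezing (0.0475), and by 1.19 ± 0.30 at 3 days after contraction (0.0205). Without sample 436 the rise at 3 days after freezing was 1.27 ± 0.27 (0.000488), and that at 7 days, 0.79 ± 0.27, was called (0.0412, against 0.159). The rise at 1 day after freezing was kept under all 37 alternatives. That at 3 days after freezing was lost on leaving out any of 20 of the 24 other arrays (adjusted p up to 0.273). That after contraction was lost without contraction sample 435 or 467 or control 3 (up to 0.105).

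Eif5 had a time course of its own. It read 419, 377 and 394 in controls and 550, 599 and 450 (6 hours), 881 and 820 (1 day), 250, 358 and 323 (3 days) and 373, 215 and 262 (7 days) after contraction. In frozen muscle it gave 389, 465 and 531 (6 hours), 465, 486 and 561 (1 day), 358, 287 and 300 (3 days) and 282 and 299 (7 days). The 2 arrays at 1 day after contraction were the highest of the 25, and the rise there was 1.08 ± 0.21 (limma adjusted p = 0.00641, and 0.00139 without sample 436). By 3 and 7 days after contraction all arrays were below the lowest control, with changes of -0.36 ± 0.19 (0.244) and -0.50 ± 0.19 (0.351) that were not called. All arrays at 3 and 7 days after freezing were below it as well, and these groups were not called either. The rise rests on 2 arrays and was lost without either one, contraction sample 421 or 463, with adjusted p up to 0.100 and changes between 1.03 and 1.13 over all arrays left out in turn.

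**Figure D4:**
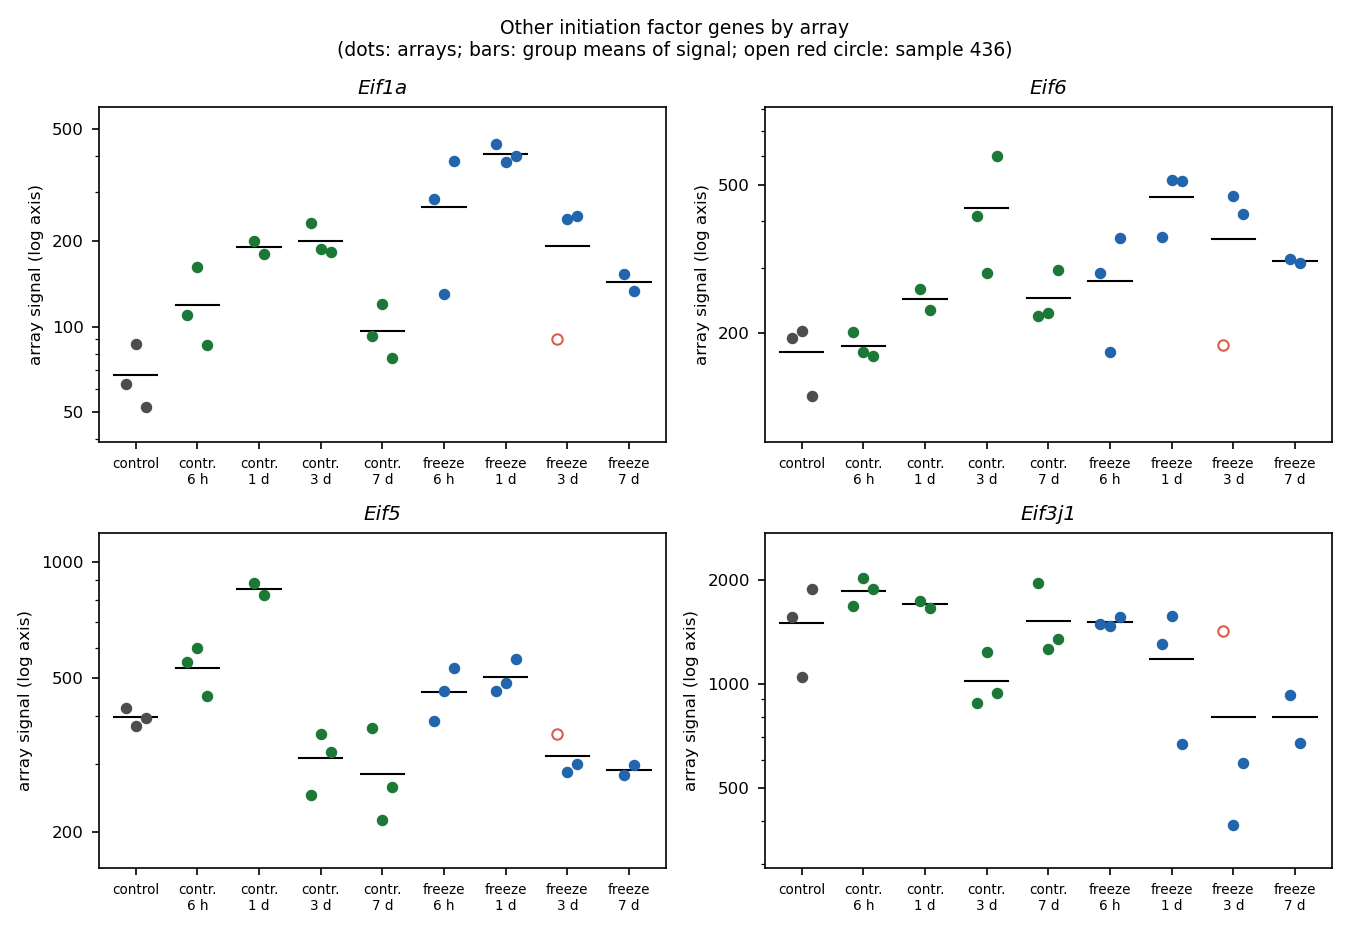
Signals of Eif1a, Eif6, Eif5 and Eif3j1 on log axes in each of the 25 arrays by group, with black bars at the group means and sample 436 as an open red circle. Eif1a and Eif6 are high at 1 day after freezing (382 to 443 and 364 to 518), Eif5 at 1 day after contraction (820 and 881), and Eif3j1 is low at 3 days after freezing (389 and 587 without sample 436).

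The eIF2 system was read from 11 tested genes. eIF2 carries the initiator tRNA, eIF2B reloads it with GTP, and 4 kinases switch eIF2 off under haem lack, viral RNA, misfolded protein or amino acid lack. Of the 11 genes tested 1 was called with all arrays and 4 without sample 436, all of them lower. These counts of few genes stand beside 31.6% and 56.7% of all named genes called at least once, and the difference was not tested. The 3 kinases tested (Eif2ak1, Eif2ak2 and Eif2ak4) were called in none of 24 comparisons with control, with or without that sample, with changes between -0.34 and 0.82 and, with all arrays, SEs of 0.20 to 0.38, and the fourth, Eif2ak3, was too dim. In limma 2 of these 24 changes, or 3 without sample 436, had an unadjusted p under 0.05, all higher.

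Eif2d, encoding a factor that can deliver tRNA without eIF2, fell at 1 day after freezing by 0.87 ± 0.24 on the log2 scale (limma adjusted p = 0.0183, and 0.00192 without sample 436). Its signals were 227, 274 and 178 in controls against 124, 84.2 and 148, which did not overlap. With sample 436 kept the call was lost without control 1 or 2 or freeze sample 460 (adjusted p up to 0.101), and also with the mean of the gene's probe sets. Without sample 436 Eif2d was also called lower at 3 days after contraction (-0.60 ± 0.20, 0.0297) and after freezing (-0.83 ± 0.22, 0.00402). Eif2s2, the beta subunit of eIF2, read 166, 135 and 172 in controls, 105, 138 and 138 (6 hours), 117 and 143 (1 day), 72.6, 113 and 64.2 (3 days) and 178, 111 and 63.4 (7 days) after contraction. After freezing it read 94.5, 109 and 77.4 (6 hours), 98.8, 112 and 80.8 (1 day), 188, 70.4 and 73.1 (3 days) and 61.7 and 88.3 (7 days). It was called lower only without sample 436, at 3 days after contraction (-0.85 ± 0.26, adjusted p = 0.0209, against 0.0934) and at 3 days (-1.0 ± 0.29, 0.00793, against 0.193) and 7 days (-0.96 ± 0.29, 0.0231, against 0.106) after freezing. A second, dim probe set of Eif2s2 (mean signal 24.3) changed by 0.26, 0.33 and 0.19 in these groups without sample 436 and was not called. Of the 4 eIF2B subunits tested, Eif2b2 (-0.76 ± 0.25, 0.0183) and Eif2b4 (-0.51 ± 0.17, 0.0193) were called lower at 3 days after freezing, again only without it. Eif2s3y, the Y-linked copy of the gamma subunit, read 17, 3.2 and 33.8 in controls and between 1.70 and 34.0 over all 25 arrays, all from female mice, and was not tested. After contraction it read 19.7, 16.1 and 17.1 (6 hours), 13.1 and 1.7 (1 day), 8.2, 9.5 and 13.4 (3 days) and 8.9, 30.3 and 12.8 (7 days), and after freezing 25.5, 3.3 and 17.4 (6 hours), 4.4, 16.4 and 16.2 (1 day), 34, 8.8 and 1.9 (3 days) and 8 and 16.2 (7 days).

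eIF3, the large assembly that bridges mRNA and the small subunit, showed members moving apart. Of 10 subunit genes tested, Eif3j1, a loosely held subunit, was called lower with all arrays, and Eif3d, a subunit that can itself bind caps, and Eif3l were called higher without sample 436. The other 7 were called in no comparison with control, with or without it. Of all named genes 31.6% were called at least once with all arrays and 56.7% without sample 436. Over all 10 genes the changes lay between -1.06 and 0.72 with all arrays and between -1.58 and 1.06 without sample 436.

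Eif3j1 read 1561, 1047 and 1878 in controls and 1679, 2022 and 1873 (6 hours), 1740 and 1652 (1 day), 880, 1232 and 939 (3 days) and 1952, 1261 and 1350 (7 days) after contraction. In frozen muscle it read 1491, 1473 and 1559 (6 hours), 1301, 1566 and 668 (1 day), 1423, 389 and 587 (3 days) and 925 and 674 (7 days). Arrays at 3 days after freezing other than sample 436, and both at 7 days, lay below the lowest control. It fell at 3 days after freezing by 1.06 ± 0.35 on the log2 scale (limma adjusted p = 0.0417), and by 1.58 ± 0.29 without sample 436 (0.000105), when the change at 7 days of -0.87 ± 0.29 was called as well (0.0370, against 0.186). Using all arrays the fall at 3 days was lost without control 1 or 3 or freeze sample 418, 450 or 468 (adjusted p up to 0.289) or with no filter. Eif3d read 394, 369 and 385 in controls, 767, 510 and 658 at 3 days after contraction and 355, 840 and 780 at 3 days after freezing. Without sample 436 it was called higher at these times, by 0.72 ± 0.19 (adjusted p = 0.00749) and 1.06 ± 0.21 (0.000269), and at 1 day (0.55 ± 0.19, 0.0318) and 7 days after freezing (0.60 ± 0.21, 0.0478). With it the 4 adjusted p values were 0.0737 to 0.213. Eif3l, at 599, 529 and 828 in controls and 594, 1173 and 1328 at 3 days after freezing, changed by 0.95 ± 0.22 without sample 436 (adjusted p = 0.00101, against 0.102). A second probe set of Eif3e fell at 3 days after contraction (-1.28, adjusted p = 0.0406) where the one used changed by 0.06.

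**Figure D5:**
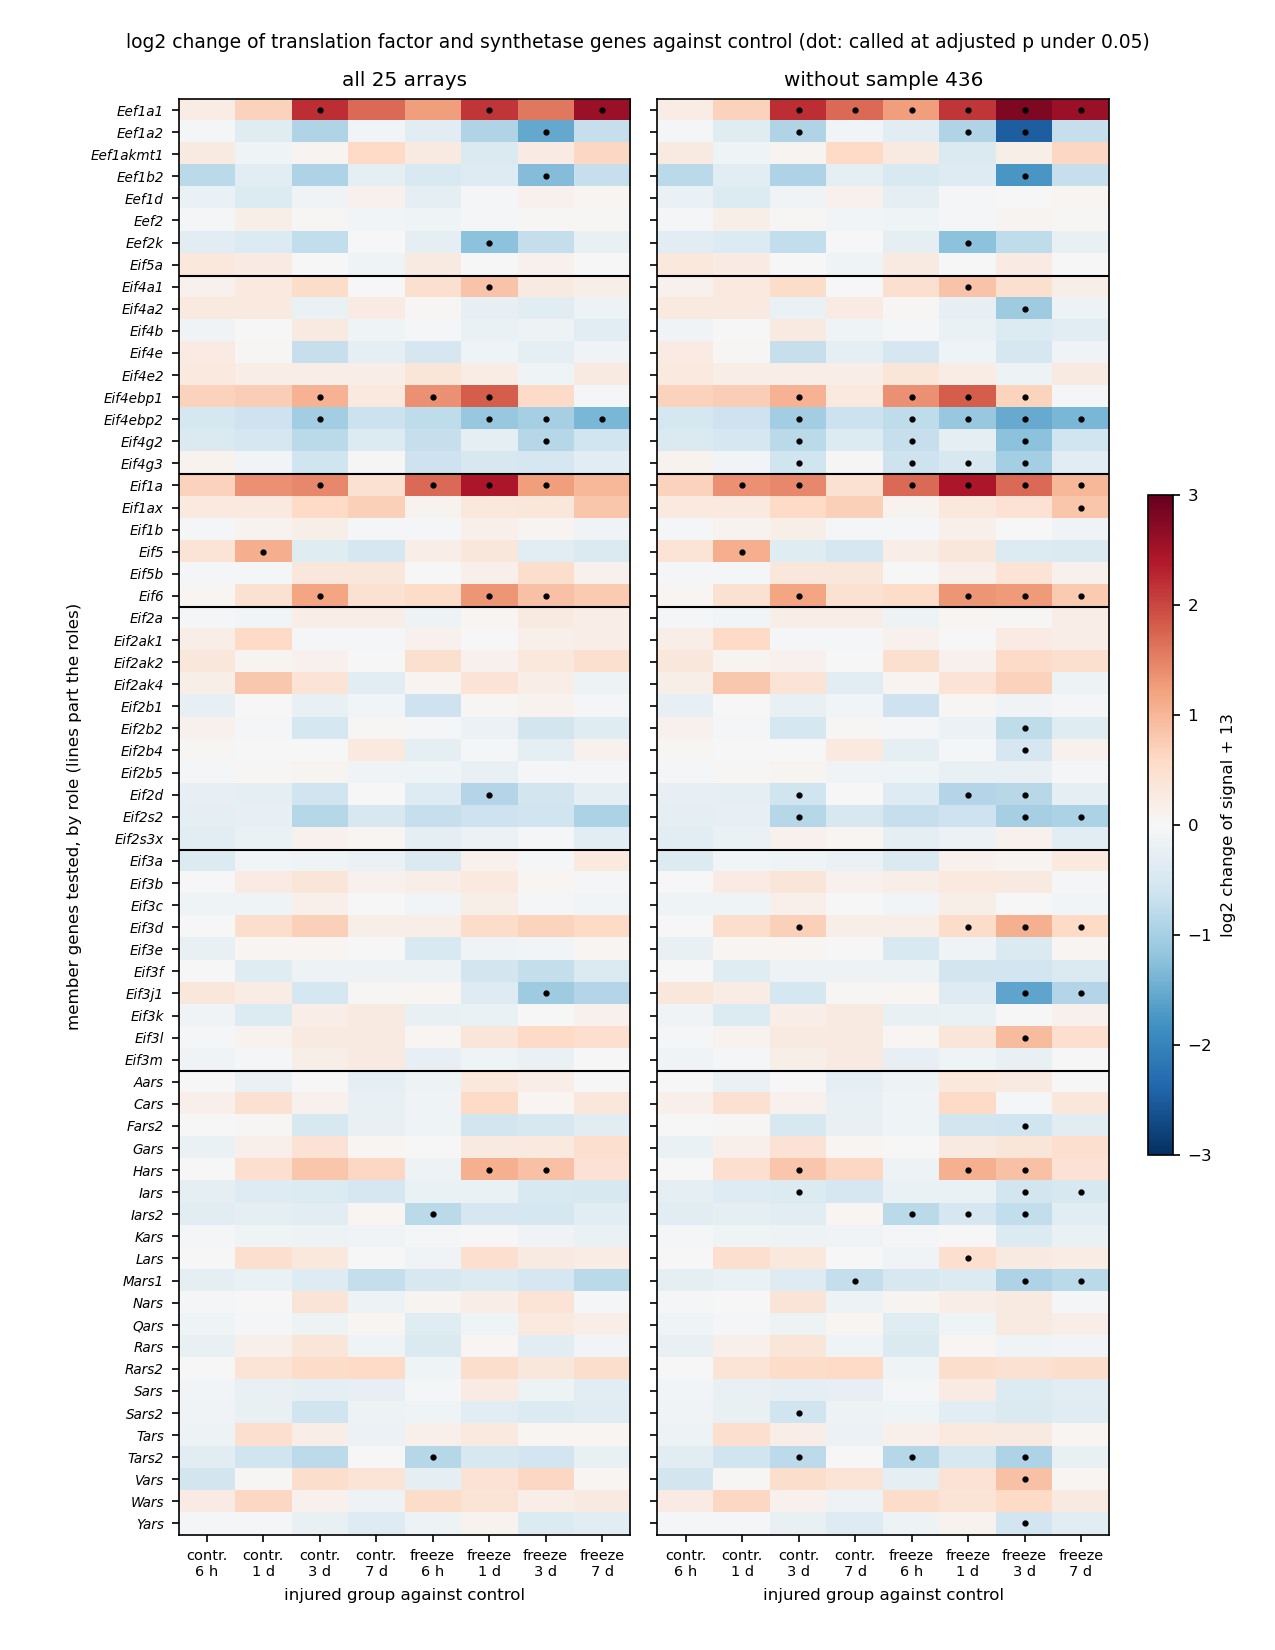
log2 change of signal + 13 against control for the 65 tested genes (rows, parted by role) in the 8 injured groups (columns), with all 25 arrays (left) and without sample 436 (right), where a dot marks an adjusted p under 0.05. Dots gather in a few rows, such as Eef1a1, Eif4ebp2 and Eif1a, and 16 rows have a dot on the left and 31 on the right.

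Several synthetase genes are known targets of ATF4, the transcription factor made when the eIF2 kinases act, which binds composite sites written TGATGNAA. RefSeq promoter windows of 250 bases before to 50 after a gene's start (GRCm38.p6) were at hand for 55 of the 70 genes, in 70 windows. The motif was not searched for Hars, Lars and Vars, the synthetases called higher, for Cars, Nars, Rars and Wars, or for Eef1akmt1, Eef1d, Eef1g, Eif1a, Eif3e, Eif4ebp1, Eif4g2 and Eif6, for which no window was at hand. The motif was searched on both strands, and in these windows no match of it overlapped a match of the other motif searched. It stood in 7 of the 70 windows (10.0%), against 1304 of 32851 windows of the same length (3.97%). Of 14 synthetase windows 5 held it (35.7%), those of Aars, Gars, Iars, Tars and Yars; the others were of Eef2k and Eif2s3x. The E-box CACGTG, a motif bound by MYC and its partners, stood in 15 of the 70 windows (21.4%), which belong to 13 genes, and in 3 of the 14 synthetase windows, against 7.15% of all windows. A match describes letters, not a bound site. The stretches around the matches that lie wholly before the gene's start are shown because they bear on the synthetases, on Eef2k, which fell after freezing, and on Eif2s3x, a gamma subunit of eIF2; capitals mark the match, which reads as the reverse complement of the motif on the gene's strand.
Aars, chr8:111033710-111033757, plus strand: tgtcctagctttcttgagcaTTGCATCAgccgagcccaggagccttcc
Gars, chr6:55037951-55037998, plus strand: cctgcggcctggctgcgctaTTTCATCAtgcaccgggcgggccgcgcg
Tars, chr15:11399659-11399693, minus strand: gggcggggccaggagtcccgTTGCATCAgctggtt
Eef2k, chr7:120851085-120851132, plus strand: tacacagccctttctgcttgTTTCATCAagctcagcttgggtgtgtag
Eif2s3x, chrX:94212720-94212767, minus strand: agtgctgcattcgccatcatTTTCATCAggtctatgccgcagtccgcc

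None of the 5 synthetases found to hold this motif was called higher, and those that were called higher were not among the genes searched. Aars, Gars and Tars were called in no comparison with control, with or without sample 436. Over Aars, Gars, Iars, Tars and Yars the 40 changes against control lay between -0.51 and 0.50 with all arrays, with SEs of 0.16 to 0.27, and limma called 0, while 2 higher and 5 lower changes had an unadjusted p under 0.05; the background shares of these comparisons are given above. Without sample 436, 4 were called, all lower, 3 of Iars and 1 of Yars.

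Of the 21 synthetases, 3 were called with all arrays and 10 without sample 436, beside 31.6% and 56.7% of all named genes called at least once. Hars, which charges the tRNA of histidine, rose, and the mitochondrial Iars2 and Tars2, for isoleucine and threonine, fell. Hars read 62.1, 102 and 29.8 in controls and 63.7, 78.4 and 37.2 (6 hours), 107 and 73.8 (1 day), 105, 125 and 118 (3 days) and 86.5, 85.5 and 126 (7 days) after contraction. After freezing it read 40.5, 62.1 and 53.2 (6 hours), 146, 123 and 140 (1 day), 120, 120 and 118 (3 days) and 82.9 and 85.9 (7 days). All arrays at 1 and 3 days after freezing lay above the controls, here sample 436 included, and the rises were 1.06 ± 0.28 at 1 day (limma adjusted p = 0.0163) and 0.88 ± 0.28 at 3 days (0.0357). Without sample 436 they were 1.06 ± 0.28 (0.00672) and 0.88 ± 0.31 (0.0262), and the rise of 0.84 ± 0.28 at 3 days after contraction was called too (0.0317, against 0.0623). The controls of Hars were spread widely. Sample 436 correlated with the controls more closely than with its own group, yet it read 120 for Hars, as high as that group. A signal at the level of the rise thus also occurred in an array that otherwise resembled the controls, and the reason was not tested. With sample 436 kept, the call at 1 day was lost without control 3 or freeze sample 422 or 464 (adjusted p up to 0.0973) and that at 3 days without control 1 or 3 or freeze sample 450 or 468 (up to 0.183).

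Synthetases of the mitochondrion, encoded by Fars2, Iars2, Rars2, Sars2 and Tars2, were set beside those that serve the cytosol, some of which also serve mitochondria. At the successive times after contraction the median change of the 5 was -0.11, -0.22, -0.48 and 0.01, and that of the other 16 was -0.07, 0.02, 0.14 and -0.15. After freezing the medians were -0.14, -0.49, -0.49 and -0.32 for the 5 and -0.13, 0.26, 0.13 and 0.02 for the 16. The median of the 5 was thus the lower one except at 7 days after contraction. Without sample 436 the medians at 3 days after freezing were -0.60 and 0.26, and the others were as with it. Of the 5, Rars2 alone had changes above 0 at 3 days after contraction (0.54 ± 0.24, limma adjusted p = 0.150) and at 1 day after freezing (0.52 ± 0.24, 0.146). Rars2 was also alone in this at 3 and 7 days after freezing (0.34 and 0.52), and none of these changes was called. All arrays of Rars2 at 1, 3 and 7 days after either injury lay above the controls. This grouping was made after the values were seen, and the difference between the classes was not tested. Iars2 read 277, 314 and 358 in controls and 207, 250 and 292 (6 hours), 227 and 295 (1 day), 176, 264 and 309 (3 days) and 306, 321 and 352 (7 days) after contraction. After freezing it read 174, 169 and 177 (6 hours), 236, 196 and 218 (1 day), 296, 169 and 199 (3 days) and 272 and 229 (7 days). All 3 arrays at 6 hours after freezing lay below the controls, and Iars2 fell there by 0.81 ± 0.21 on the log2 scale (limma adjusted p = 0.0242, and 0.00425 without sample 436). Tars2 read 228, 200 and 231 in controls and 173, 159 and 185 (6 hours), 132 and 150 (1 day), 89.6, 122 and 166 (3 days) and 197, 254 and 214 (7 days) after contraction. In frozen muscle it read 144, 110 and 98 (6 hours), 162, 132 and 165 (1 day), 236, 116 and 105 (3 days) and 205 and 167 (7 days). It fell by 0.85 ± 0.24 at 6 hours after freezing, where again no array overlapped the controls (0.0459, and 0.00425 without sample 436). With all arrays, the fall of Iars2 was lost without control 2 or 3 or any 1 of the 3 frozen samples (adjusted p up to 0.114), and that of Tars2 on leaving out any of 19 of the 24 other arrays (up to 0.192).

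The remaining synthetase calls were made only without sample 436. Tars2 was then also lower at 3 days after contraction (-0.78 ± 0.19, limma adjusted p = 0.00450) and after freezing (-0.92 ± 0.21, 0.00127), and Iars2 at 1 day (-0.51 ± 0.18, 0.0407) and 3 days after freezing (-0.74 ± 0.20, 0.00541). Sars2 was lower at 3 days after contraction (-0.59 ± 0.20, 0.0377), where it read 157, 177 and 148 against 242, 188 and 333 in controls. Fars2 was lower at 3 days after freezing (-0.60 ± 0.23, 0.0396), at 184, 137 and 154 against 250, 266 and 174. With sample 436 kept, the adjusted p of these 6 changes ran from 0.0508 to 0.109. Neither other probe set of Sars2, both dimmer, was called at 3 days after contraction without that sample, at -0.16 (limma adjusted p = 0.819) and -0.30 (0.46). The latter was called lower at 3 days after freezing, by -0.90 with all arrays (0.0296) and -0.74 without sample 436 (0.0466).

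Among cytosolic synthetases Mars1, which charges the methionine tRNAs, was lower at 7 days after contraction (-0.72 ± 0.16, limma adjusted p = 0.0145, against 0.257 with sample 436), at 3 days after freezing (-0.93 ± 0.18, 0.000243, against 0.151) and at 7 days after freezing (-0.80 ± 0.18, 0.00311, against 0.0877). Its signals were 362, 378 and 326 in controls, 320, 246 and 303 (6 hours), 305 and 313 (1 day), 272, 233 and 311 (3 days) and 195, 187 and 253 (7 days) after contraction. Freezing gave 236, 275 and 241 (6 hours), 251, 235 and 311 (1 day), 451, 202 and 161 (3 days) and 193 and 202 (7 days). Sample 436 was the highest of the 25 arrays, and both 7-day groups lay wholly below the controls. Iars was lower at 3 days after contraction (-0.40 ± 0.14, 0.0499), at 3 days after freezing (-0.56 ± 0.16, 0.00694) and at 7 days after freezing (-0.48 ± 0.16, 0.0387), and read 442, 458 and 614 in controls against 404, 319 and 413, 428, 341 and 327, and 353 and 355. Yars was lower at 3 days after freezing (-0.57 ± 0.21, 0.0283), at 248, 177 and 161 against 255, 284 and 236. A second, dimmer probe set of Yars changed by -0.22 there without sample 436 and was not called (limma adjusted p = 0.59). Vars was higher there (0.88 ± 0.26, 0.00815), at 257, 384 and 558 against 229, 274 and 237, and Lars at 1 day after freezing (0.50 ± 0.18, 0.0447), at 306, 382 and 409 against 261, 248 and 253. In the model of all arrays, the adjusted p of these changes of Iars, Yars, Vars and Lars ran from 0.0568 to 0.166. In all, of the 10 synthetases called without that sample, Hars, Vars and Lars were higher and the other 7 lower.

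The comparison of the injuries at matched times addresses the series' main question, how contraction and freezing differ. With all arrays 1 of the 65 genes differed. At 6 hours limma called 0 (6 had an unadjusted p under 0.05), beside 0.347% of all genes, and at 1 day 1 (1.54%, against 1.56%). None was called later by limma: at 3 days 3 had an unadjusted p under 0.05 (0.448% of all genes were called) and at 7 days 4 (0.405%). The gene was Eif4ebp1, 1.09 ± 0.24 higher at 1 day after freezing than after contraction (adjusted p = 0.0202), at 464, 390 and 560 against 246 and 183. The call was lost without contraction sample 421 or 463 or freeze sample 422 or 464, where the difference was between 0.89 and 1.29 and the adjusted p reached 0.364.

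Without sample 436, 2 genes were called at 6 hours (3.08%, against 2.62% of all genes) and 5 at 1 day (7.69%, against 10.8%). The later counts were 7 at 3 days (10.8%, against 18.6%) and 1 at 7 days (1.54%, against 7.97%). At 6 hours Eef1a1 was 1.03 ± 0.27 higher (limma adjusted p = 0.0466) and Eif4g3 lower (-0.72 ± 0.15, 0.00991) after freezing. At 1 day Eef1a1 (1.44 ± 0.30, limma adjusted p = 0.00316), Eif1a (1.05 ± 0.30, 0.0287), Eif6 (0.86 ± 0.27, 0.0417) and Eif4ebp1 were higher after freezing, and Eif5 was lower (-0.74 ± 0.20, 0.0185). At 3 days Eef1a2 (-1.56 ± 0.30, 0.000732), Eif3j1 (-1.05 ± 0.29, 0.0129), Eif4a2 (-0.87 ± 0.19, 0.00292) and Eif4b, whose product aids the helicase (-0.68 ± 0.21, 0.0242), were among 6 genes lower after freezing, and Eif3l was higher (0.67 ± 0.22, 0.0348). At 7 days Eif4ebp2 was lower after freezing (-0.72 ± 0.22, 0.0476). Eif4b signals at 3 days were 640, 341 and 442 after freezing and 670, 553 and 677 after contraction, against 473, 514 and 566 in controls. The other 2 tested probe sets of Eif4b were not called in this comparison without sample 436, at 0.22 (limma adjusted p = 0.692) and -0.37 (0.673). At this time the macrophage sum was 25451 to 26967 after freezing and 8517 to 13053 after contraction, and the fibre sum 29482 to 39758 and 65469 to 88429; their part in these differences was not tested.

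Other genes of the pathway were counted whole. Beside them, with all arrays, 2.01%, 1.91%, 8.78% and 0.636% of all named genes were called at the successive times after contraction. After freezing the shares of all genes were 5.38%, 14.8%, 18.9% and 5.6%. Without sample 436 they were 3.72%, 4.71%, 24.4% and 3.38% after contraction and 12.7%, 28.5%, 44.9% and 21.1% after freezing. Of 7 further synthetase and multisynthetase complex genes tested, limma called 0 higher in any injured group with all arrays (0 at an unadjusted p under 0.05) and 1, Qrsl1, fell at 1 day after freezing; the largest fall of the list was Aimp2, a scaffold of the complex, at -1.21 (limma adjusted p = 0.0608, and 7.24e-05 without sample 436). Without that sample falls were called for 1 at 3 days after contraction and for 1, 2, 3 and 1 at the successive times after freezing. Of 25 other translation genes (release, recycling, poly(A)-binding and ribosome assembly factors) 2 rose at 3 days after contraction, 4 rose and 1 fell at 1 day after freezing, 3 rose and 1 fell at 3 days after freezing, and 1 fell at each of 6 hours and 7 days after freezing. Without sample 436, 5 rose and 1 fell at 3 days after contraction, and at 3 days after freezing 5 rose and 8 fell. The largest rise was that of Pabpc1, the cytoplasmic poly(A)-binding protein, at 1 day after freezing (1.86, adjusted p = 0.00146), and the largest fall that of Pelo, a rescue factor of stalled ribosomes, at 7 days after freezing (-1.49, 0.0126). Of 13 genes of mTOR signalling 2 rose at 6 hours and 2 at 1 day after contraction, 1 rose and 1 fell at 3 days after contraction, and 2 fell at 3 days after freezing. Without sample 436, 3 rose and 4 fell at 3 days after freezing. The largest rise was Ddit4, an inhibitor of mTOR complex 1, at 1 day after contraction (1.68, 0.00653), and the largest fall Mknk1, a kinase of eIF4E, at 3 days after contraction (-1.14, 0.0418).

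Genes of the ATF4 and stress response list were called higher in each injured group except at 7 days after contraction with all arrays, and in each without sample 436. Promoter windows were not at hand for the synthetases called higher or for Eif4ebp1, so their rises were not set against the motif. Of the list's 17 genes tested 3, 5, 3 and 0 rose at the successive times after contraction, and 4, 8, 4 and 1 after freezing. With all arrays limma called 0 lower, where 10 falls had an unadjusted p under 0.05. Of all named genes 2.01%, 1.91%, 8.78% and 0.636% were called in either direction after contraction, and 5.38%, 14.8%, 18.9% and 5.6% after freezing. Their shares without sample 436 are given with the other lists. Without sample 436 the rises were 3, 7, 5 and 1 after contraction and 9, 10, 8 and 4 after freezing, and 2 genes fell at 7 days after contraction, 1 at 1 day and 2 at 3 days after freezing. The largest rise was that of Atf3, a stress-induced transcription factor, at 6 hours after contraction (6.35, limma adjusted p = 2.01e-10). Psat1, an enzyme of serine synthesis, rose by 3.21 at 3 days after contraction (0.0202) and 3.87 at 1 day after freezing (0.00353). The list's largest fall, Ddit3 at 7 days after contraction (-1.24), was not called with all arrays (0.0846) and was called without sample 436 (0.0247). The median change of the list was 0.79 at 1 day after freezing, against 0.01 for the 65 translation genes and -0.07 for all genes.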

How the data were processed

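Total RNA of 25 tibialis anterior muscles was hybridised to Affymetrix MG-U74Av2 arrays, 1 per sample. The deposited values are linear intensity signals per probe set, made by the authors with MAS5 per the submitters' processing notes; its version and scaling target were not among the sources used here. The mean trimmed by 2% at either end was 150.1 on all arrays, so a change is relative to the bulk of its array. Of 12488 probe sets, 66 were controls, 10833 had 1 gene symbol, 396 several and 1193 none in the platform annotation, whose symbols can be old; symbols were updated through a RefSeq gene table.

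The analysis used log2(signal + 13). Probe sets above their array's 40th percentile on at least 2 arrays (9506) entered 1 limma 3.58.1 model in R 4.3.3 with a mean for each of 9 groups and eBayes with a trend (16 residual and 5.46 prior degrees of freedom). The 12 comparisons were each injury at each time with control and freezing minus contraction at each time; p-values are two-sided. The model was tested on simulated data. The number of arrays per group limits the precision. Figures were drawn with matplotlib 3.10.9.

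Per-array signals are given for 12 members fixed by name, for the called members with the 4 largest changes in each comparison and for called synthetases, those called only without sample 436 in fewer groups; other members were named after their values were seen. The members and lists were chosen with earlier results of these data known. Alternatives were other pseudocounts, quantile normalization, median centring, other filters, no trend, array weights, only the compared groups, the mean of all probe sets, neighbouring sample numbers as a random block, a stricter threshold and leaving out each array. Promoter sequences are RefSeq's (GRCm38.p6); the array itself names no genome build, and protein sequences were not used here.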

Additional observations from a re-analysis of the deposited data

Results flagged for a closer look

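The results here are members whose change differed between the injuries at a matched time, by the test of freezing minus contraction itself (limma, adjusted over 9506 probe sets). The difference of Eif4ebp1 at 1 day was called with all arrays, 1.09 higher after freezing (adjusted p = 0.0202), and was again 1.09 without sample 436 (0.00264). The other differences were called without sample 436 and not with it. At 6 hours they were 1.03 for Eef1a1 (adjusted p = 0.0466) and -0.72 for Eif4g3 (0.00991). At 1 day they were 1.44 for Eef1a1 (0.00316), 1.05 for Eif1a (0.0287), 0.86 for Eif6 (0.0417) and -0.74 for Eif5 (0.0185). At 3 days they were -1.56 for Eef1a2 (0.000732), -1.05 for Eif3j1 (0.0129), -0.87 for Eif4a2 (0.00292), -0.68 for Eif4b (0.0242), -0.55 for Mars1 (0.0398), -0.51 for Eif2b4 (0.0409) and 0.67 for Eif3l (0.0348). The other 2 tested probe sets of Eif4b were not called there. At 7 days the difference was -0.72 for Eif4ebp2 (0.0476). The groups at 3 days then hold 2 frozen arrays and 3 of contraction. No group has 4 samples or more, so no test for outlying samples was made, and sample 436 is described with the results.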

How the results depend on the processing

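Over 37 alternatives, none of 102 results on named members was reversed where the main or the alternative value was called. Changes of sign between values that were both uncalled were not counted. Of the values 192 lost a call, 24 gained one and 3542 did neither. Only results called with the main settings could lose a call, and the 3542 also hold uncalled results. The losses are therefore a larger share of the calls than of all values. Per call they ran from 0 to 25 of the 37 alternatives, the most for Tars2 at 6 hours after freezing. Counts of members called moved as follows, in the order contraction at 6 hours, 1, 3 and 7 days, freezing at the same times, freezing minus contraction at the same times, and any change. Main counts were 0, 1, 5, 0, 4, 9, 8, 2, 0, 1, 0, 0 and 11. With array weights they were 0, 2, 12, 2, 7, 11, 27, 12, 4, 7, 10, 3 and 40. At an adjusted p under 0.01 they were 0, 1, 1, 0, 2, 4, 0, 0, 0, 0, 0, 0 and 3. With only the compared groups, freezing at 3 days gave 0 and at 7 days 4, contraction at 7 days 1, and freezing minus contraction 5 at 1 day and 1 at 7 days. Quantile normalization gave 2 for contraction at 1 day, no filter 4 for freezing at 3 days, and the mean of all probe sets 1 for freezing at 7 days. Leaving out each array gave, in the order above, 0 to 0, 0 to 2, 1 to 15, 0 to 2, 2 to 8, 6 to 14, 0 to 25, 0 to 10, 0 to 2, 0 to 5, 0 to 7, 0 to 1 and 8 to 30. Each highest count except the first came from leaving out sample 436, which freeze sample 432 equalled for contraction at 1 day. A group reduced to 1 array in this way is assumed to vary like the other groups. No other alternative moved a count by over 1.5 times. The cause of these moves was not tested. No paired analysis was possible because the groups share no replicate numbers; neighbouring sample numbers as a random block had a consensus correlation of -0.0937 and left every count within 1.5 times. Changes of dim genes are limited by the added 13 units and by signals near the array's background.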
